A study of Homo sapiens with 36 samples.

Results

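The 10 genes described here encode the HIF subunits HIF1A, EPAS1 and ARNT, the oxygen-dependent hydroxylases EGLN1, EGLN2, EGLN3 and HIF1AN, and the VHL adaptor with its elongin partners, listed under their older symbols TCEB1 (elongin C) and TCEB2 (elongin B). They were taken by name from the 21950 genes of the expression table, whatever their values, and all 10 were listed. RNA had been sequenced from K562, a human erythroleukemia line grown in suspension. The 12 groups were 1%, 5% and 21% oxygen at 6 h, 24 h, 3 d and 6 d, with 3 libraries each and 36 in all. All groups shared the same line, DMEM medium and 6-well plates, and the plates were passaged at 3 d, with no statement of whether the 3 d harvest came before or after. Each oxygen level had its own incubator, so oxygen level and incubator cannot be told apart. The labels number the replicates but say nothing of separate cultures, so a p-value reflects nothing but the scatter among these libraries, which may be technical.

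Hypoxia-inducible factor is a pair of an alpha subunit, HIF1A or EPAS1 (HIF-2 alpha), with the constant partner ARNT. In oxygenated cells the prolyl hydroxylases EGLN1, EGLN2 and EGLN3 mark the alpha subunits, and VHL, held to a cullin ligase by the elongins B and C, then sends them to the proteasome, while HIF1AN hydroxylates an asparagine that blocks the binding of coactivators. The system is thus known mainly for control of protein stability, and EGLN1 and EGLN3 are themselves well known HIF target genes. Only RNA was measured here.

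Values are FPKM, fragments scaled by transcript length and by library, so levels of different genes can be set side by side. Differences are on the log2(FPKM + 1) scale, which understates the change of weakly expressed genes, and a gene passed the test at a limma adjusted p (Benjamini-Hochberg, over 10625 genes) under 0.05. The tables hold no counts, so the depth in reads is unknown. A rough estimate from 2681 rarely detected genes put 35 libraries between 0.343 and 1.504 of their median depth, with replicate 3 of 21% at 24 h lowest. Replicate 3 of 1% at 3 d did not resemble the rest. Only 7220 of its genes were above 0, against 14512 to 19543 in the others, and 435 of 3699 highly expressed genes were listed at 0, against 7 or fewer. This shallow library was kept, and the main counts of members are also given without it. All 10 K562 markers were present in every library, at 4.25 FPKM or more in the 35.

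The 3 members that were higher in 1% than in 21% oxygen on average were EGLN3, EPAS1 and EGLN1. Their promoters are shown first, as the 250 bases before the RefSeq start site on GRCh38.p14, because they carry or lack the core of the hypoxia response element. Capitals mark ACGTG or GCGTG on either strand.
EGLN3 promoter, chr14:33951075-33951324, minus strand: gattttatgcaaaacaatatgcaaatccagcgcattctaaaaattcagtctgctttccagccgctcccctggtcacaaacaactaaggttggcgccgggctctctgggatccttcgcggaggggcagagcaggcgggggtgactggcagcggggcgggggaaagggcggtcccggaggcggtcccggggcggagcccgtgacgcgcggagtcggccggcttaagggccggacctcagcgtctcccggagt
EPAS1 promoter, chr2:46297157-46297406, plus strand: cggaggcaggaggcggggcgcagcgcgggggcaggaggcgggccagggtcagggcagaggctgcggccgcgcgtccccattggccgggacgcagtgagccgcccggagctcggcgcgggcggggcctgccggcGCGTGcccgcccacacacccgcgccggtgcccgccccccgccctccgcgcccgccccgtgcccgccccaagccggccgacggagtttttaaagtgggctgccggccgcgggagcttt
EGLN1 promoter, chr1:231422288-231422537, minus strand: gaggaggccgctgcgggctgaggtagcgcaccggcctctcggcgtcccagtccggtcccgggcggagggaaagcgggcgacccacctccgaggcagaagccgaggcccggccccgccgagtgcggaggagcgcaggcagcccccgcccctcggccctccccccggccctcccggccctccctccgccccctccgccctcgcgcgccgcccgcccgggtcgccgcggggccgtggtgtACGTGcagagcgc
EPAS1 held GCGTG 117 bases before its start and EGLN1 held ACGTG 13 bases before its start, whereas neither sequence was in the EGLN3 window. RefSeq windows of 8 of the 10 members were searched, 10 windows in all. VHL had no window, and the TCEB1 promoter was not used. In the search, 5 windows of 5 members held the core (HIF1A, EPAS1, EGLN1, EGLN2 and TCEB2). Of all 35116 promoter windows of 250 bases, 43.2% held it (95% Wilson interval 42.7% to 43.7%), so a match is common, and it shows neither binding nor its absence.

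Averaged over the 4 times with equal weight, 5 of the 10 members passed the test in 1% against 21% oxygen, where 31.4% of all genes tested passed. EGLN3, EPAS1 and EGLN1 were higher and TCEB1 and TCEB2 lower. In 5% against 21%, 3 members passed, against 24.2% of all genes, with EGLN3 and EPAS1 higher and TCEB1 lower. In 1% against 5%, 2 members passed, against 4.41% of all genes, and both EGLN3 and EGLN1 were higher in 1%. The median difference over the 10 members in 1% against 21% was -0.10, against -0.07 over all genes, and differences in both directions were called. With the shallow library left out, more of all genes passed too. The counts in these 3 comparisons were then 6 members (49.0% of all genes), 5 (48.4%) and 2 (14.2%), the added ones being ARNT in both comparisons with 21% and EGLN1 in 5%, all higher.

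By time, no member passed at 6 h in 1% against 21%, nor did any gene (0% of 10625; 351 had an unadjusted p under 0.05). At 24 h 5 members passed, against 16.2% of all genes. At 3 d 5 passed, against 53.2%, and at 6 d 3 passed, against 10.9%. In 5% against 21% the counts were 0 members at 6 h (0% of all genes, 280 with an unadjusted p under 0.05), 3 at 24 h (9.38%), 3 at 3 d (21.8%) and 2 at 6 d (14.8%). Without the shallow library the counts in 1% against 21% were 1 member at 6 h (0.0941% of all genes), 6 at 24 h (38.6%), 6 at 3 d (53.7%) and 4 at 6 d (29.8%). For 5% against 21% they were 0 at 6 h (0%), 4 at 24 h (28.2%), 6 at 3 d (44.9%) and 5 at 6 d (37.0%).

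**Figure D1:**
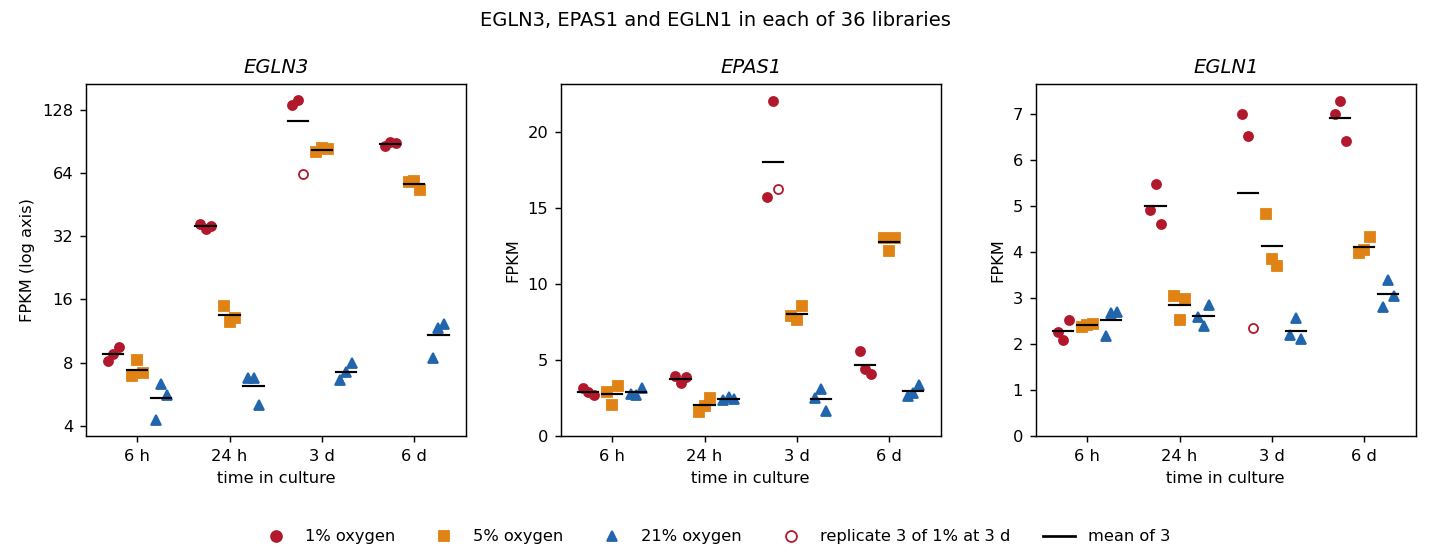
FPKM of EGLN3 (log axis), EPAS1 and EGLN1 in each of the 36 libraries by time, with 1%, 5% and 21% oxygen from left to right. Points are libraries, black lines are means of 3, and the open circle is the shallow library. Apart from the open circle, EGLN3 and EGLN1 are highest in 1% at 24 h, 3 d and 6 d, while EPAS1 is highest in 1% at 3 d and in 5% at 6 d.

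EPAS1, the alpha subunit best known from endothelium and kidney, was a low-level gene that rose late under low oxygen. At 3 d its libraries held 15.7, 22.1 and 16.2 FPKM in 1%, 7.87, 7.64 and 8.53 FPKM in 5% and 2.47, 3.10 and 1.66 FPKM in 21%. At 6 d they held 5.63, 4.41 and 4.07 FPKM in 1%, 13.1, 12.2 and 13.03 FPKM in 5% and 2.62, 2.86 and 3.34 FPKM in 21%. The 3 oxygen levels did not overlap at either time, but the order of 1% and 5% was the opposite at 6 d of that at 3 d. At 6 h all 9 libraries lay between 2.02 and 3.31 FPKM.

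Against 21%, EPAS1 in 1% was 0.47 higher at 24 h (SE 0.154, limma adjusted p 0.0355), 2.49 at 3 d (adjusted p 5.93e-13) and 0.53 at 6 d (adjusted p 0.0241). The 24 h call was lost without any one of its 6 libraries (adjusted p 0.0522 to 0.125) and after quantile normalization (0.181), and the 6 d call without replicate 1 or 2 of 21% or replicate 1 of 1% (0.0761 to 0.1405) and in TPM (0.0995). In 5% against 21% the difference was 1.42 at 3 d (adjusted p 5.96e-08) and 1.81 at 6 d (adjusted p 8.5e-10), with -0.20 at 24 h, which did not pass.

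The comparisons of 1% with 5% at single times were chosen after the values had been seen. No member passed at 6 h (0.0471% of all genes did), while EPAS1 and EGLN3 passed at 24 h (2 members, 0.744% of all genes), EPAS1 higher with EGLN2 and TCEB2 lower at 3 d (3 members, 36.6%), and EGLN1 and EGLN3 higher with EPAS1 lower at 6 d (3 members, 8.61%). The EPAS1 difference of 1% from 5% was 1.06 at 3 d (limma adjusted p 4.82e-05) and -1.28 at 6 d (adjusted p 1.36e-06). The 3 d difference minus the 6 d difference was 2.34 (SE 0.218, limma adjusted p 3.2e-08). EPAS1 and TCEB2 were the 2 members that passed that test, against 25% of all genes. Within 1%, EPAS1 was lower at 6 d than at 3 d by a difference of -1.73 (adjusted p 1.39e-09), and EGLN2 and TCEB1 were higher (3 members, 49.0% of all genes). Within 5% it was 0.61 higher at 6 d than at 3 d (adjusted p 0.0155), the only member to pass there, against 7.41% of all genes.

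With the shallow library left out, the members that passed beside EPAS1 changed. In 1% against 5% at 3 d, EPAS1 (1.13), EGLN3 (0.74), EGLN1 (0.61) and VHL (0.57) then passed as higher and none as lower (4 members, 26.9% of all genes). EGLN2 (-0.35, limma adjusted p 0.2801) and TCEB2 (-0.43, adjusted p 0.130) did not pass there without it. At 6 h 0 members passed (1.26% of all genes), at 24 h EPAS1, EGLN1 and EGLN3 as higher (3 members, 2.95%), and at 6 d EGLN1 and EGLN3 as higher with EPAS1 and ARNT lower (4 members, 27.6%). The 3 d minus 6 d value for EPAS1 was then 2.404, and EPAS1 and VHL were the 2 members that passed that test (35.3% of all genes). For 6 d against 3 d within 1%, EPAS1 (-1.79), EGLN3 (-0.65) and ARNT (-0.56) were then lower and TCEB1 (0.46) higher (4 members, 44.6%), while EGLN2 (0.48, adjusted p 0.105) did not pass. Within 5% the same contrast was passed by 5 members (25% of all genes), EPAS1, HIF1A and VHL higher and ARNT and EGLN3 lower.

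Other measures also differed between these groups, some in the direction of EPAS1 and some not. The olfactory share and MALAT1, given below, ranged higher in 1% than in 5% at 3 d without the shallow library, as EPAS1 did. The 3 d ranges of the olfactory share overlapped. At 6 d both measures were higher in 5% than in 1%, as EPAS1 was. In 1% against 21% at 6 d EPAS1 was higher, while the olfactory share and the marker sum given below were lower. The share of 394 olfactory receptor genes, which serve smell, listed above 0 was 54.8% to 70.1% in 1% at 3 d without the shallow library, 48.0% to 56.3% in 5% at 3 d and 33.8% to 38.8% in 21% at 3 d. At 6 d it was 23.6% to 37.1% in 1%, 66.0% to 74.6% in 5% and 39.6% to 48.2% in 21%. In replicate 3 of 5% at 24 h it was 67.3%, with EPAS1 at 2.48 FPKM. Of 10 markers of T, B, myeloid, endothelial, fibroblast and liver cells, between 5 and 10 were above 0 in the 3 d and 6 d libraries, and 2 in the shallow one. Their summed level was 13.6 to 16.8 FPKM in 1% without the shallow library (12.1 FPKM), 13.6 to 17.7 in 5% and 7.95 to 8.08 in 21% at 3 d, and 3.49 to 4.29, 9.62 to 10.2 and 7.26 to 9.30 FPKM in 1%, 5% and 21% at 6 d. The endothelial marker CDH5 was at 0 in 27 of the 35 libraries and at most 0.0789 FPKM, and CD3E and MPO were at 0 in 14 and 11. PECAM1, the other endothelial marker, was above 0 in all 35, at 0.246 to 2.17 FPKM. At 3 d PECAM1 was at 0.817 to 2.17 FPKM in 1% without the shallow library, 1.16 to 1.56 in 5% and 1.04 to 1.09 in 21%. At 6 d PECAM1 was at 0.649 to 1.40, 1.131 to 1.83 and 0.746 to 1.127 FPKM in 1%, 5% and 21%. COL1A2, a fibroblast collagen, was the only 1 of the 10 markers high enough to be tested. It passed as higher in 1% than in 21% at 3 d (0.65) but as lower at 6 d (-1.09), where EPAS1 was higher. MPO, a myeloid marker, and COL1A1, another fibroblast collagen, stood above 21% in 1% at 3 d and in 5% at both times, as EPAS1 did. MPO was at 1.27 to 1.90 FPKM in 1% without the shallow library, 0.781 to 1.40 in 5% and 0.0201 to 0.0994 in 21% at 3 d, and at 0 to 0.155, 0.621 to 1.21 and 0.0246 to 0.137 FPKM in 1%, 5% and 21% at 6 d. COL1A1 was at 0.895 to 1.02 FPKM in 1% without the shallow library, 0.958 to 2.41 in 5% and 0 to 0.114 in 21% at 3 d, and at 0.162 to 0.297, 0.879 to 1.27 and 0.0641 to 0.120 FPKM in 1%, 5% and 21% at 6 d. Of 7 tested nuclear-retained RNAs, a rough sign of RNA quality, 4 passed as higher and 2 as lower in 1% against 21% on average, where 31.4% of all genes passed. At 3 d, where 53.2% of all genes passed, 5 were higher and 1 lower, with a median difference of 0.51 against -0.32 over all genes. Without the shallow library these were 4 and 1 (53.7% of all genes). At 6 d 2 passed as higher and 0 as lower (10.9% of all genes). One of the 7 RNAs, MALAT1, was at 476 to 510 FPKM in 1% at 3 d without the shallow library, 119.7 to 237 in 5% and 106 to 134 in 21%. At 6 d MALAT1 was at 144 to 189 FPKM in 1%, 236 to 344 in 5% and 129.8 to 160 in 21%. The part of these measures in the EPAS1 values was not tested. In bulk RNA, fewer cells of a kind and less RNA per cell cannot be told apart.

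HIF1A, the alpha subunit of most cell types, showed no difference that passed in any comparison with 21%. Its libraries ranged from 6.52 to 16.04 FPKM with a median of 12.7. The average difference was -0.06 in 1% against 21% (95% interval -0.23 to 0.10, limma adjusted p 0.588) and 0.00 in 5% against 21% (-0.16 to 0.17, adjusted p 0.998). At 6 d the libraries held 11.04, 13.004 and 10.1 FPKM in 1%, against 13.2, 15.3 and 15.7 FPKM in 21%, without overlap but short of the threshold (-0.35, limma adjusted p 0.206, and -0.26 with adjusted p 0.0284 when libraries were weighted by their scatter). The lowest value, 6.52 FPKM, belonged to replicate 3 of 21% at 24 h.

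ARNT, the shared beta subunit, depended on the shallow library. At 3 d it held 22.4, 22.4 and, in the shallow library, 6.94 FPKM in 1%, 20.4, 22.0 and 23.1 FPKM in 5%, and 15.3, 15.96 and 17.3 FPKM in 21%. The 5% libraries and the other 1% libraries all lay above the 21% libraries. With all 36 libraries no ARNT difference passed (1% against 21% at 3 d -0.08, limma adjusted p 0.793; 5% against 21% at 3 d 0.41, adjusted p 0.231). Without the shallow library these were 0.44 (adjusted p 0.001) and 0.41 (adjusted p 0.00099). Outside 3 d, ARNT lay between 10.9 and 18.2 FPKM.

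Among the hydroxylases, EGLN3, the prolyl hydroxylase well known to be induced by HIF, had the largest differences from 21% of the 10 members at 24 h, 3 d and 6 d in 1% oxygen. At 24 h it held 36.8, 34.7 and 35.9 FPKM in 1%, 14.9, 12.5 and 13.1 FPKM in 5% and 6.77, 6.77 and 5.04 FPKM in 21%. At 3 d it held 135, 143 and, in the shallow library, 63.6 FPKM in 1%, 80.8, 84.1 and 83.8 FPKM in 5% and 6.61, 7.20 and 7.95 FPKM in 21%. At 6 d it held 86.3, 89.7 and 89.3 FPKM in 1%, 57.8, 58.6 and 53.4 FPKM in 5% and 8.46, 11.7 and 12.3 FPKM in 21%. Every library of 1% and 5% lay above every library of 21% at the same time, at 6 h too, where 1% held 8.18 to 9.49, 5% 6.93 to 8.21 and 21% 4.26 to 6.34 FPKM.

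In 1% against 21% EGLN3 was 0.62 higher at 6 h (SE 0.189, limma adjusted p 1, and 0.037 without the shallow library), 2.36 at 24 h, 3.72 at 3 d and 2.94 at 6 d (adjusted p 1.77e-09, 1.05e-14 and 3.11e-12), and 2.41 on average (SE 0.0944, adjusted p 2.92e-17). In 5% against 21% it was 0.40 higher at 6 h, which did not pass, 1.02 at 24 h, 3.35 at 3 d and 2.30 at 6 d, and 1.77 on average. The 24 h call in 5% (adjusted p 0.0026) was not made on these 2 groups alone (0.175). Over the 12 groups, 7 of 11 neighbours in the order of medians were apart, from 135 FPKM in 1% at 3 d down to 5.64 FPKM in 21% at 6 h. Between 1% and 5% the difference was 1.35 at 24 h (adjusted p 8.22e-05) and 0.64 at 6 d (adjusted p 0.0318), while at 3 d it was 0.37 with the shallow library (adjusted p 0.118) and 0.74 without it (adjusted p 0.000215). In 21% oxygen alone EGLN3 was 0.88 higher at 6 d than at 6 h (adjusted p 0.00251). TCEB2 was the other of the 2 members that passed there, against 11.1% of all genes, and 0 members passed at 24 h (0.132% of all genes) or 3 d (4.60%) against 6 h. Leaving out the shallow library, the counts in 21% against 6 h were 0 at 24 h (2.42% of all genes), 1 at 3 d (18.1%), which was EGLN3, and 4 at 6 d (29.3%), with ARNT and VHL higher besides.

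EGLN1, the main prolyl hydroxylase in normal oxygen, was lower in level, with smaller differences. EGLN1 held 4.92, 5.49 and 4.62 FPKM in 1% at 24 h, 3.04, 2.52 and 2.99 FPKM in 5% and 2.59, 2.39 and 2.86 FPKM in 21%. At 6 d it held 7.0, 7.29 and 6.43 FPKM in 1%, 3.99, 4.04 and 4.32 FPKM in 5% and 2.80, 3.39 and 3.04 FPKM in 21%. The 1% libraries stood above all others at both times. At 3 d the 1% libraries held 7.01, 6.52 and, in the shallow library, 2.34 FPKM, against 2.20, 2.57 and 2.11 FPKM in 21%.

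The EGLN1 difference of 1% from 21% was 0.73 at 24 h, 0.83 at 3 d (1.24 without the shallow library) and 0.96 at 6 d, with limma adjusted p 0.00846, 0.000738 and 0.000878. Fitted on the 3 d groups alone it did not pass (adjusted p 0.303). At 6 h it was -0.09 and did not pass. In 5% against 21% it was 0.63 at 3 d (adjusted p 0.016), a call that was lost without replicate 1 or 3 of 21% or replicate 1 of 5% (0.0517 to 0.0834), and 0.33 at 6 d (adjusted p 0.304, and 0.00964 without the shallow library). On average EGLN1 was 0.35 higher in 1% than in 5% (adjusted p 0.0295), which did not pass without 1 library in 7 of 24 such fits (0.0505 to 0.0580).

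EGLN2, a prolyl hydroxylase not known as a HIF target, was expressed at a median of 78.4 FPKM and, with all libraries, passed against 21% at 3 d in 1% alone. At 3 d EGLN2 held 46.7, 63.9 and, in the shallow library, 16.3 FPKM in 1%, 69.1, 68.5 and 72.6 FPKM in 5% and 92.3, 93.2 and 90.7 FPKM in 21%. The oxygen levels did not overlap, with 1% lowest and 21% highest. In 1% against 21% EGLN2 was lower, by -1.30 (limma adjusted p 0.000988), or -0.74 without the shallow library (adjusted p 0.00988), whereas the 5% difference of -0.39 did not pass (adjusted p 0.44). On the 3 d groups alone the 1% call was lost (adjusted p 0.185) and the 5% difference passed (0.00152). Replicate 1 of 21% at 6 h (34.0 FPKM) and replicate 3 of 21% at 24 h (36.6 FPKM) lay far below their groups. Without the shallow library EGLN2 passed at 24 h as higher in 1% (0.61) and in 5% (0.57) than in 21%. Leaving out that replicate 3 of 21% at 24 h instead, with the shallow library kept, gave 0.33 in 1% (limma adjusted p 0.778) and 0.29 in 5% (adjusted p 1), neither of which passed.

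HIF1AN, the asparaginyl hydroxylase, held 5.75 to 9.88 FPKM in 35 libraries and was listed at 0 in the shallow one. Its difference of 1% from 21% at 3 d was -1.06 (limma adjusted p 0.0317) with that library and -0.05 (adjusted p 0.755) without it. No other comparison of HIF1AN with 21% passed.

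VHL, the substrate receptor, held 3.94 to 10.8 FPKM in 35 libraries and was also listed at 0 in the shallow one. At 6 d it held 6.82, 7.37 and 6.46 FPKM in 1%, 7.36, 7.51 and 7.76 FPKM in 5% and 9.63, 10.1 and 10.8 FPKM in 21%, so both low levels lay below 21%. With all libraries the differences of -0.50 (1%, limma adjusted p 0.579) and -0.38 (5%, adjusted p 0.661) did not pass. Without the shallow library they did (adjusted p 0.000656 and 0.00536), as did 5% against 21% at 3 d (-0.31, adjusted p 0.0184). At 3 d without that library the 1% value of VHL differed from 21% by 0.26, which did not pass (adjusted p 0.0679).

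TCEB1 and TCEB2, the elongins that link VHL to the cullin, were lower in 1% on average and lower in both low oxygen levels at 24 h on the deposited scale, although TCEB1 in 5% at 24 h was 0.029 higher in TPM. TCEB1 at 24 h held 59.4, 70.5 and 57.3 FPKM in 1%, 71.7, 65.4 and 64.7 FPKM in 5% and 76.8, 88.3 and 109 FPKM in 21%. TCEB2 held 262, 291 and 240.3 FPKM in 1%, 336, 255 and 248 FPKM in 5% and 319, 477 and 793 FPKM in 21%. The 793 FPKM came from replicate 3 of 21%, the library with the lowest estimated depth and the highest total FPKM. The differences of 1% from 21% were -0.53 for TCEB1 (limma adjusted p 0.00275) and -0.90 for TCEB2 (adjusted p 0.00233), and those of 5% were -0.42 (adjusted p 0.0235) and -0.83 (adjusted p 0.00952).

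These elongin calls depended on the scaling and on single libraries. Rescaling each library to the same total (TPM) moved the median of all genes at 24 h to 0.39 in 1% and 0.36 in 5% against 21%. On that scale TCEB1 differed by -0.08 in 1% (limma adjusted p 0.738) and by 0.029, a higher value, in 5% (adjusted p 0.910), while TCEB2 in 5% was at -0.38 (adjusted p 0.0686), and all 3 lay below the median of all genes. The 5% calls of both elongins were lost without replicate 3 of 21% (-0.29 for TCEB1 and -0.49 for TCEB2; adjusted p 0.326 and 0.186) and without replicate 2 or 3 of 5%. The 1% calls at 24 h were lost on the 2 groups alone (adjusted p 0.0543 and 0.0809). Averaged over time, TCEB1 was at -0.29 (adjusted p 0.000434) and TCEB2 at -0.30 (adjusted p 0.0204) in 1% against 21%, or -0.13 and -0.14 with adjusted p 0.202 and 0.151 in TPM. At 3 d and 6 d no TCEB1 difference from 21% passed with all libraries. Without the shallow library TCEB1 passed as lower at 3 d in 1% (-0.42, limma adjusted p 0.00171) and in 5% (-0.28, adjusted p 0.0174). At 6 d it then passed as lower in 5% (-0.27, adjusted p 0.0293). In TPM with all libraries TCEB1 passed as lower in 5% at 3 d (-0.43, adjusted p 0.0353).

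**Figure D2:**
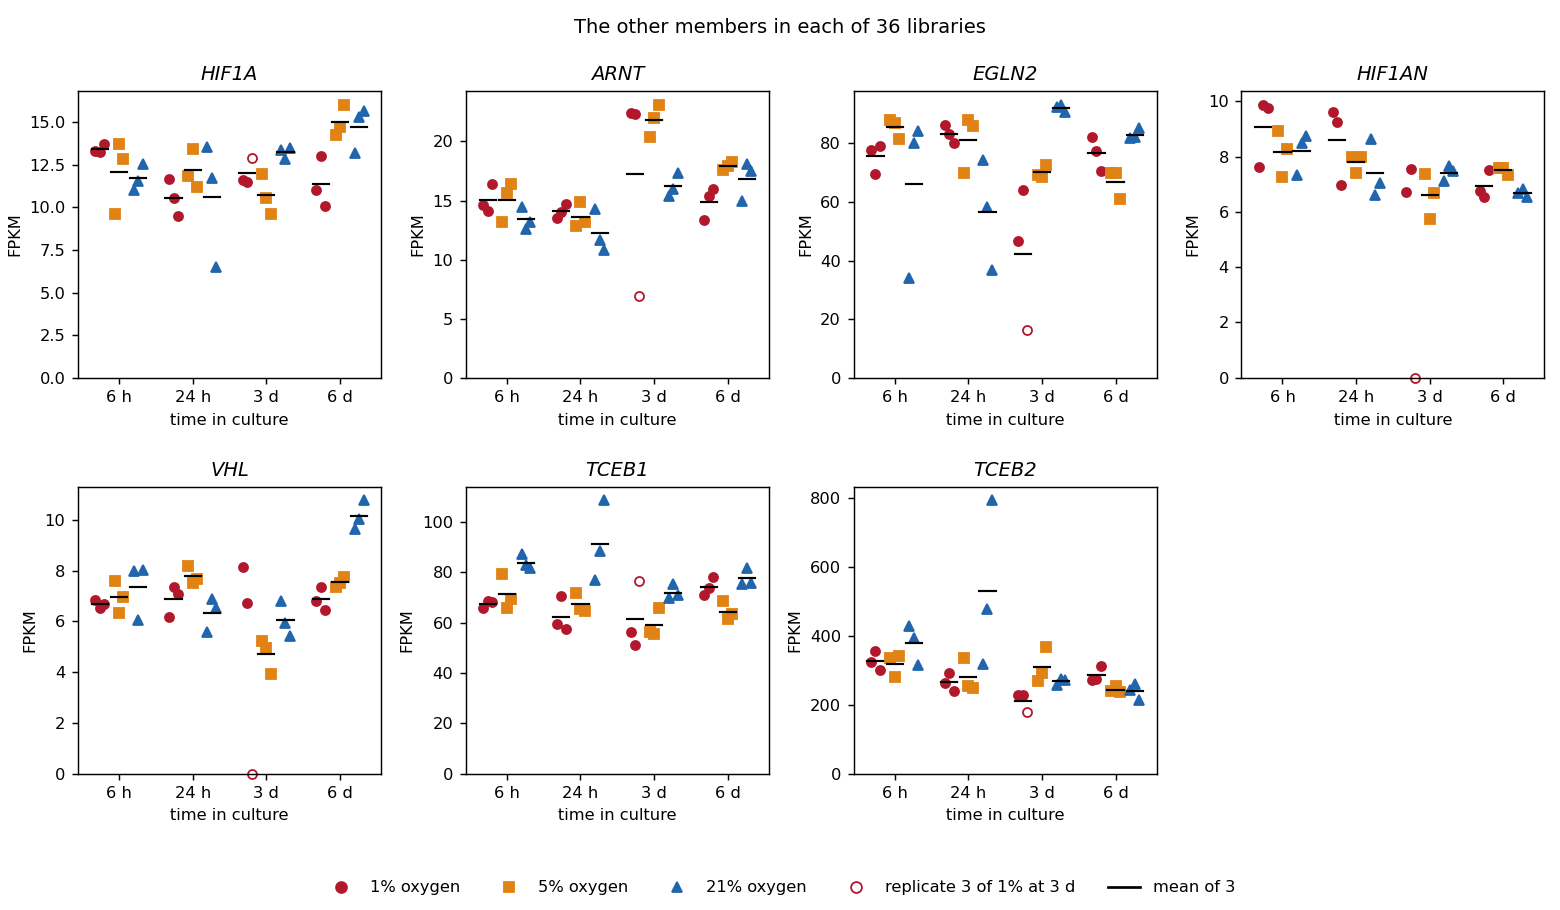
FPKM of HIF1A, ARNT, EGLN2, HIF1AN, VHL, TCEB1 and TCEB2 in each of the 36 libraries by time, with 1%, 5% and 21% oxygen from left to right and axes from 0. Points are libraries, black lines are means of 3 (none where a library is listed at 0), and the open circle is the shallow library. The open circle lies at 0 for HIF1AN and VHL and low for ARNT and EGLN2, and 1 library of 21% at 24 h stands at 793 FPKM for TCEB2.

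**Figure D3:**
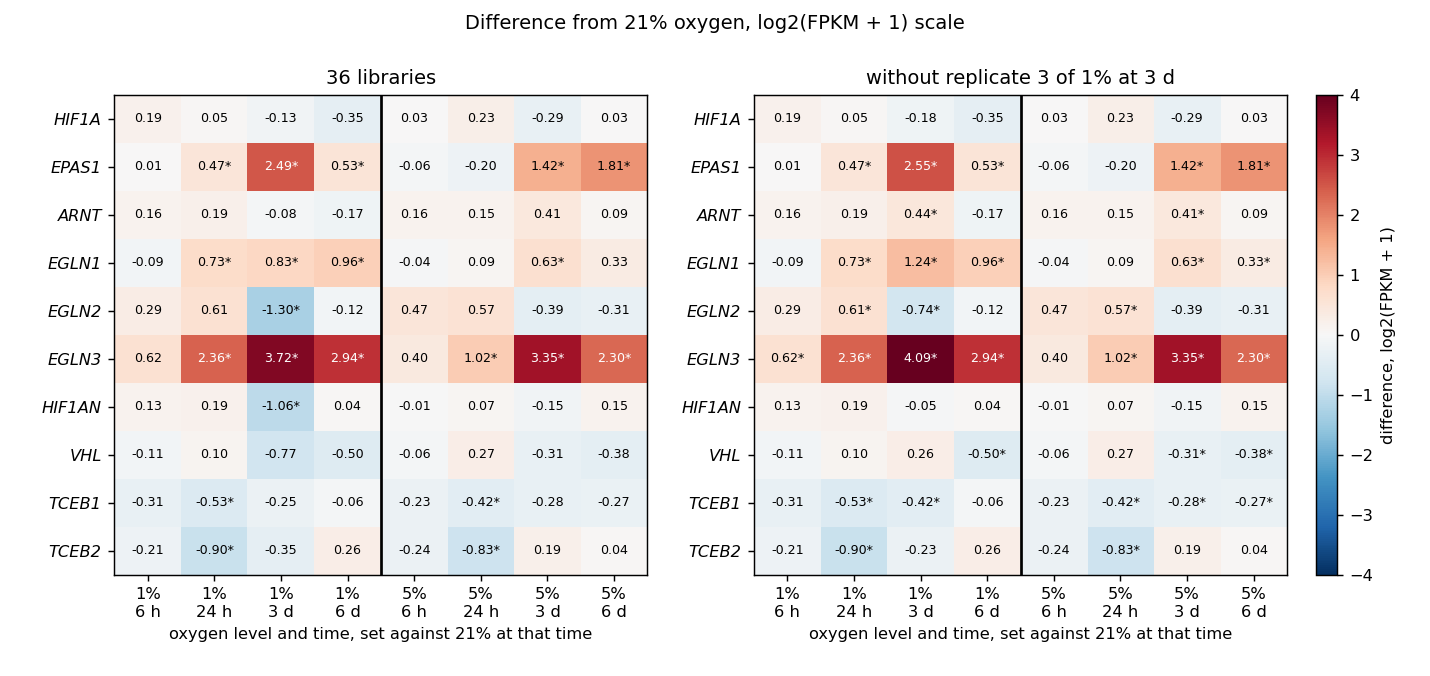
Difference of 1% and 5% from 21% oxygen on the log2(FPKM + 1) scale for the 10 members at each time, with 36 libraries on the left and without the shallow library on the right. Colour and number give the difference and an asterisk a limma adjusted p under 0.05. EGLN3 reaches 3.72 in 1% and 3.35 in 5% at 3 d, and HIF1A has no asterisk in either panel.

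The test of whether the difference of 1% from 21% varied with time was passed by 5 members (EPAS1, EGLN1, EGLN2, EGLN3 and TCEB2), against 40.3% of all genes, and for 5% against 21% by 3 (EPAS1, EGLN3 and TCEB2), against 14.5%. Over the 4 times, 6 members varied within 1% (56.7% of all genes), 3 within 5% (32.0%) and 2 within 21% (19.6%). The 6 within 1% were EPAS1, EGLN1, EGLN2, EGLN3, HIF1AN and TCEB2, the 3 within 5% EPAS1, EGLN1 and EGLN3, and the 2 within 21% EGLN3 and TCEB2. Leaving out the shallow library, 8 members passed for 1% against 21% (63.3% of all genes) and 6 for 5% against 21% (41.9%), while 6 varied within 1% (65.6%), 5 within 5% (63.9%) and 7 within 21% (48.6%). The 6 within 1% were then EPAS1, ARNT, EGLN1, EGLN3, HIF1AN and TCEB1. No reading of the members as a list rests on these counts.

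The transcript table split HIF1A into 3 RefSeq forms. NM_001530 encodes the full-length protein, and NM_181054 encodes a shorter protein without the C-terminal activation domain. In 1% at 3 d NM_181054 was estimated at 7.92, 5.70 and 11.8 FPKM, against 0.00962, 0.774 and 0.000462 FPKM in 21%, while NM_001530 was at 3.04, 5.23 and 6.29e-05 FPKM in 1%, against 13.4, 12.1 and 13.5 FPKM in 21%. The third value of 1% is the shallow library. Neither form overlapped between the groups, although the HIF1A gene level did not pass the test there.

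The difference of 1% from 21% at 3 d was 2.91 for NM_181054 (limma adjusted p 7.94e-05, over 15360 transcripts) and -2.25 for NM_001530 (adjusted p 0.000218), and 2.67 and -1.48 without the shallow library (adjusted p 0.00054 and 0.00127). Fitted on these 2 groups alone neither passed (adjusted p 0.056 and 0.244). In 5% at 3 d NM_181054 was between 0.000482 and 0.763 FPKM. The form was not confined to 1% at 3 d. At 24 h it made up 31.8% to 40.4% of HIF1A in 1% and 23.2% to 49.7% in 5%, where 1 library held 6.67 FPKM. At 6 h its share was 13.1% to 24.3% in 21% but 0.0315% to 3.96% in 1%. The NM_181054 share of HIF1A was also 66.6% in replicate 3 of 21% at 24 h, and 24.3% in replicate 1 and 0.83% in replicate 2 of that group. The forms overlap in sequence and were told apart from paired reads of 25 bases, so the split is an uncertain estimate.

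**Figure D4:**
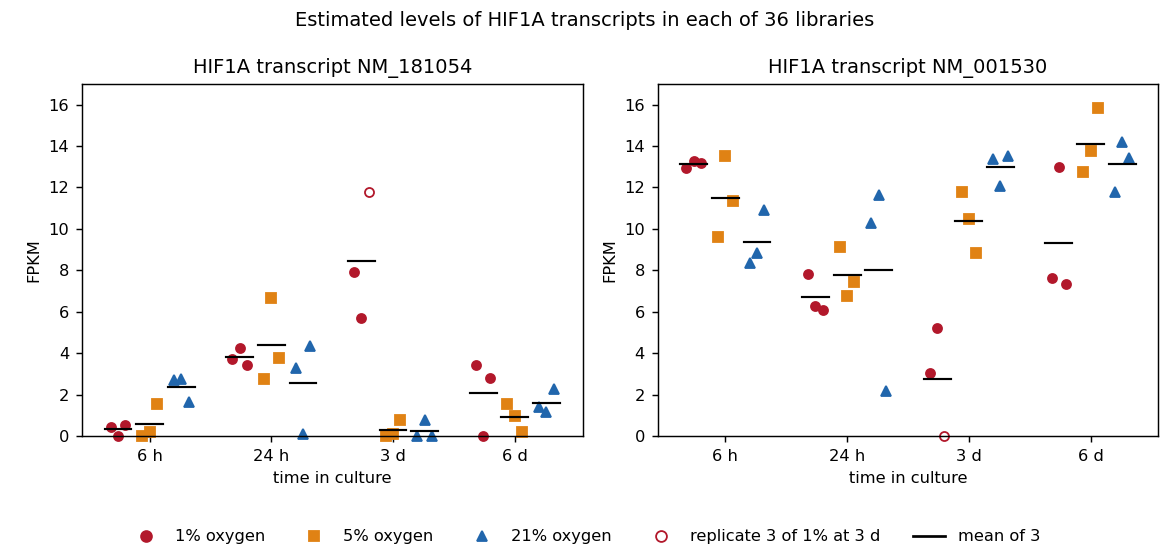
Estimated FPKM of the HIF1A transcripts NM_181054 (left) and NM_001530 (right) in each of the 36 libraries by time, with 1%, 5% and 21% oxygen from left to right. Points are libraries, black lines are means of 3, and the open circle is the shallow library. In 1% at 3 d NM_181054 stands at 5.70 to 11.8 FPKM, above all 21% libraries, and the mean of NM_001530, 2.76 FPKM, is the lowest of the 12 groups.

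Some loci could share reads with members. HIF1A-AS2, antisense to HIF1A, was at 3.20 to 8.02 FPKM in 35 libraries, and since the counting is not stated to use strand, its reads and those of HIF1A cannot be told apart. In 1% against 21% HIF1A-AS2 did not pass on average (-0.18, limma adjusted p 0.554) or at 3 d (-0.37, adjusted p 0.489). With the shallow library left out it passed at 3 d as higher (0.67, adjusted p 0.00306), and the average was 0.076 (adjusted p 0.469). RAB4B-EGLN2, a readthrough over EGLN2, was at 1.38 FPKM or less in every library. RAB4B, its other parent gene, was higher in 1% than in 21% on average (0.37, adjusted p 0.0214). VHLL, a copy resembling VHL, was at 2.33 FPKM or less.

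The other genes of the pathway were grouped by function in lists chosen with earlier results of these data known, so their directions are no independent evidence. In 1% against 21% on average, 31.4% of all genes tested passed, 1317 of 10625 as higher and 2022 as lower. The counts here and in the next paragraph stand beside that share. Of the 10 classic HIF targets, all 10 passed as higher in 1% than in 21% on average, with a median difference of 1.41 against -0.07 over all genes. CA9, a carbonic anhydrase, differed by 2.54, P4HA1, a collagen prolyl hydroxylase subunit, by 1.72 and BNIP3, a mitophagy receptor, by 1.38. Of 11 tested regulators of the hydroxylases, 5 were higher and 1 lower. Among the higher were LIMD1, a scaffold joining EGLN and VHL proteins (0.40), SIAH2, a ligase that degrades EGLN3 (0.42), and WSB1, which targets VHL (0.51), and the lower one was PTGES3, the HSP90 cochaperone p23 (-0.19).

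Of the 10 other parts of the elongin and cullin ligases, 0 were higher and 3 lower, namely NEDD8 (-0.46), which activates cullins, TCEB3 (-0.23), the elongin A subunit, and RNF7 (-0.24), a RING subunit. Of 14 genes that act on HIF-alpha stability without oxygen, 2 were higher, among them the deubiquitinase USP33 (0.15), and 5 lower. The lower ones with the smallest adjusted p were the chaperones HSP90AA1 (-0.32) and HSPA8 (-0.31), and COPS5 (-0.27), a subunit of the signalosome. Of 13 coactivators and corepressors, 4 were higher, among them PKM (0.76), the pyruvate kinase that also binds HIF1A, CITED1 (0.90) and CREBBP (0.36), and 1 was lower, HDAC1 (-0.10). Only CLOCK of 10 other bHLH-PAS genes was expressed enough to be tested, and it did not pass (-0.058, limma adjusted p 0.4705). Without the shallow library 49.0% of all genes passed in this comparison. The counts higher and lower were then 6 and 3 for the hydroxylase regulators, 4 and 5 for the stability genes and 8 and 1 for the coactivators and corepressors. They stayed at 10 and 0 for the classic targets and at 0 and 3 for the elongin and cullin parts.

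Across the 12 group medians the genes most like EGLN3 among 10605 compared were BNIP3L (Pearson r 0.993), PNRC1 (0.9903), ENO2 (0.987), KDM3A (0.984) and TBC1D23 (0.983). Those most like EPAS1 were PHLDA1 (0.980), TNIK (0.980), ZBTB38 (0.977), LRRC8B (0.977) and SLC25A45 (0.977), and those most like EGLN1 were ESYT2 (0.949), FUT11 (0.946), PDK1 (0.946), HP1BP3 (0.937) and WDR60 (0.935). For HIF1A the closest were EED (0.864), MOB1A (0.826), PTGER3 (0.824), PDP2 (0.817) and SPATA5L1 (0.815). Between members, r was 0.907 for EGLN1 and EGLN3, 0.839 for EPAS1 and EGLN3 and 0.789 for EPAS1 and ARNT over the same 12 medians. These values describe 12 points that share oxygen levels, times and libraries.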

How the data were processed

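RNA of K562 cells was prepared by Smart-seq2 with poly(A) selection, per the labels' protocols, and sequenced as paired reads of 25 bases, per the series' design text. The deposited FPKM tables of genes and transcripts come from the authors, and the submitters' processing notes name TopHat, Cufflinks and Cuffnorm. Their versions, the build, the annotation and the strand setting were not given in the sources used, and coordinates come from RefSeq alone. FPKM hold no counts, so counting error is unknown.

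From these values log2(FPKM + 1) was computed, and the 10625 of 21950 genes averaging 1 FPKM or more were fitted in 1 limma model (limma 3.58.1, R 4.3.3) of 12 group means, with a prior trended on level and 24 degrees of freedom left. Tests were two-sided and moderated, with Benjamini-Hochberg adjustment over all genes, and a gene passed under 0.05. All 10 members passed the filter on low values. Transcripts were fitted likewise, and the members' transcripts summed to their gene values within 0.0007 FPKM. The members and gene lists were chosen with earlier results of these data known, as were the groups of pathway genes. In each pathway list up to 3 genes a direction with the smallest adjusted p were named, as were the 5 genes most like each of 4 members. The values of 1 gene that this rule names are not reported here. Comparisons of 1% with 5% at single times, of 6 d with 3 d and the difference between them were added after the values were seen.

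Other settings were a pseudocount of 0.1, no filter or one of 5 FPKM, TPM, quantile normalization, array weights, no trend, a fit on the compared groups, the replicate number as a block and leaving out each library. The fit was tested on simulated data. Promoters are those of RefSeq, read on GRCh38.p14, searched with Python 3.11.15. Figures were drawn with matplotlib 3.10.9.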

Additional observations from a re-analysis of the deposited data

Results flagged for a closer look

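For some members the effect of an oxygen level differed between times, by the limma F test of the difference itself. In 1% against 21% the adjusted p was 4.58e-09 for EPAS1, 6.93e-09 for EGLN3, 0.00457 for EGLN2, 0.0096 for EGLN1 and 0.0113 for TCEB2. In 5% against 21% it was 2.68e-08 for EPAS1, 9.88e-09 for EGLN3 and 0.0396 for TCEB2. For the difference of 1% from 5%, that at 3 d minus that at 6 d had a limma adjusted p of 3.2e-08 for EPAS1 and 0.0418 for TCEB2. Without the shallow library the TCEB2 value of the last test was 0.0703 and did not pass. No group had more than 3 libraries, so no single library could be set against its group by a test for extreme values.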

How the results depend on the processing

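Counts of members and the share of all genes called, given in brackets, both changed with the setting, and not always in the same direction. Without the shallow library in the whole fit, members passing were 1 in 1% against 21% at 6 h (0.0941%), 6 and 5 in 5% against 21% at 3 d (44.9%) and 6 d (37.0%), and 5 on average (48.4%); 8 varied with time in 1% against 21% (63.3%), and 5 and 7 within 5% (63.9%) and 21% (48.6%). With array weights these were 1 (0.442%), 7 (54.5%), 6 (53.6%), 7 (56.4%), 8 (71.0%), 9 (73.6%) and 8 (60.7%), with 5 in 1% against 21% at 6 d (46.7%), 5 in 5% against 21% at 24 h (32.9%) and 32 of the other pathway genes (55.0%), against 21 as reported (31.4%). On the compared groups alone the counts were 3 and 2 in 1% against 21% at 24 h (12.9%) and 3 d (7.70%), 0, 6 and 6 in 5% against 21% at 24 h (0.00941%), 3 d (41.8%) and 6 d (49.2%), 5 on average (47.3%), 1 in 1% against 5% (2.71%), and 3, 7 and 4 within 1% (22.6%), 5% (60.1%) and 21% (38.9%). TPM gave 3 in 1% against 21% on average (25.7%) and 4 within 21% (20.1%). Quantile normalization gave 3 at 24 h (10.4%) and 3 on average (34.8%) in 1% against 21%, 1 at 24 h in 5% against 21% (2.76%) and 5 within 5% (44.1%). With no filter 1 member passed in 1% against 5% (1.99%), EGLN1 being lost (limma adjusted p 0.0570). A filter of 5 FPKM also gave 1 (6.34%), but it left EGLN1 untested.

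ARNT in 1% against 21% at 3 d turned to 0.44 (range -0.34 to 0.44 over single libraries left out) without the shallow library and to 0.46 with array weights, and TCEB1 in 5% against 21% at 24 h to 0.029 in TPM. Leaving out 1 library gave 1 to 3 members in 5% against 21% at 24 h, 1 to 2 in 1% against 5%, 5 to 8 whose 1% difference varied with time and 18 to 30 other pathway genes. With all libraries these were 3 (9.38% of all genes), 2 (4.41%), 5 (40.3%) and 21 (31.4%). The highest values of the last 2, 8 (63.3%) and 30 (49.0%), came without the shallow library. For the other single libraries left out, the share of all genes was not recorded. The labels give every group the replicate numbers 1 to 3. The deviations of same-numbered libraries from their group means had a median r of -0.002 (-0.312 to 0.402, 187 pairs). For libraries of different numbers it was -0.0007 (-0.321 to 0.332, 374 pairs). The fit with the replicate number as a block kept all 112 single member and transcript differences on their side of the threshold. It gave 5 members in 1% against 21% on average (30.9% of all genes). The F tests are not among these 112. With the block, 5 members varied over the 4 times within 1% (55.9% of all genes), against 6 without it (56.7%). The cause of these changes was not tested. With the depth in reads unknown, no counting error can be given for the weakly expressed members EGLN1, EPAS1, VHL and HIF1AN.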
